A study of Bos taurus with 4 samples.

Results

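The genes described here are 10 maternal-effect and zona pellucida genes of the cow (Bos taurus): GDF9, BMP15, ZAR1, NLRP5, NLRP9, RNF114, DPPA3, ZP2, ZP3 and ZP4. They were taken as a group by name and looked up by symbol in the deposited expression table, where all 10 were found among 14002 genes. DPPA3 had 2 rows, NM_001111108 and NM_001111109, so the group covers 11 of 14517 RefSeq transcript rows. All 11 rows passed the filter for testing, a mean of at least 1 FPKM (sequenced fragments scaled to transcript length and library size), as did 8970 rows in all.

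A growing oocyte transcribes and stores the messenger RNAs that carry the embryo through its first divisions, before its own genome is switched on. GDF9 and BMP15 are ligands of the TGF-beta family that the oocyte secretes toward the surrounding follicle cells, and the ZP genes encode the glycoproteins of the zona pellucida, the coat that sperm bind. ZAR1, NLRP5, NLRP9, RNF114 and DPPA3 encode proteins that stay inside the egg, where several of them are needed for cleavage to proceed. Most such transcripts are degraded as the embryonic genome takes over, which in cattle happens mainly at the 8- to 16-cell stage.

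Polyadenylated RNA was sequenced from embryos of that stage, 3 days after insemination. Every embryo had received siRNAs by injection as a zygote. The control group (NC, n = 2 libraries) received negative control siRNAs, and the knockdown group (KDM5_KD, n = 2 libraries) received siRNAs against KDM5A, KDM5B and KDM5C, demethylases of lysine 4 of histone H3. The study set out to map trimethylation of that residue in early embryos, and the comparison asks how transcript levels differ when the KDM5 genes are knocked down.

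The labels of KDM5_KD replicate 2 disagree with each other, since its title names a Kdm5 knockdown and its treatment entry names siRNAs against KDM6A, KDM6B and KDM6C. KDM5A was at 10.5 and 10.1 FPKM in KDM5_KD replicates 1 and 2, against 28.4 and 27.1 FPKM in NC replicates 1 and 2. KDM5C was at 15.1 and 17.8 FPKM in the knockdown libraries and at 28.1 and 40.6 FPKM in the controls, a difference that did not pass the threshold over all rows (limma adjusted p = 0.123). KDM6A was at 7.63 and 11.3 FPKM in the controls versus 7.90 and 9.29 FPKM in KDM5_KD. The library was kept under its title, and member results are also given without it. FPKM summed to between 283347 and 322267 per library. Read numbers are unknown, but the steps between low values put NC replicate 1 at 0.683 times the depth of NC replicate 2, and the KDM5_KD replicates within 1.03 times of each other. The labels give neither the number of embryos per library nor whether replicates came from separate collections, so p-values measure only the spread between these libraries.

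None of the 11 rows passed the threshold between the groups (limma adjusted p under 0.05, called for 0.279% of the 8970 rows), although all 11 had a higher mean in KDM5_KD on the log2(FPKM + 1) scale, with a sign that flipped for DPPA3 NM_001111108 and ZP3 under both scalings tried. A positive difference was found for 62.6% of all tested rows. The member differences ran from 0.03 for DPPA3 NM_001111108 to 0.68 for BMP15, with a median of 0.37 against 0.09 for all tested rows, and no member reached a 2-fold change (4.52% of tested rows were 2-fold higher and 0.301% 2-fold lower). Rows in the same range of mean level, 5037 in number, had a median of 0.03. For 2 rows, BMP15 and DPPA3 NM_001111109, the unadjusted limma p was under 0.05, as it was for 17.5% of all tested rows. Both KDM5_KD libraries lay above both NC libraries for 5 of the 11 rows (BMP15, RNF114, DPPA3 NM_001111109, ZP2 and ZP4), against 35.1% of tested rows, and for no member did both lie below (15.6% of tested rows). In libraries made from whole embryos, a change in the number of cells of a type and a change in RNA per cell cannot be told apart. With 2 libraries against 2, an exact permutation test cannot go below p = 0.333.

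**Figure D1:**
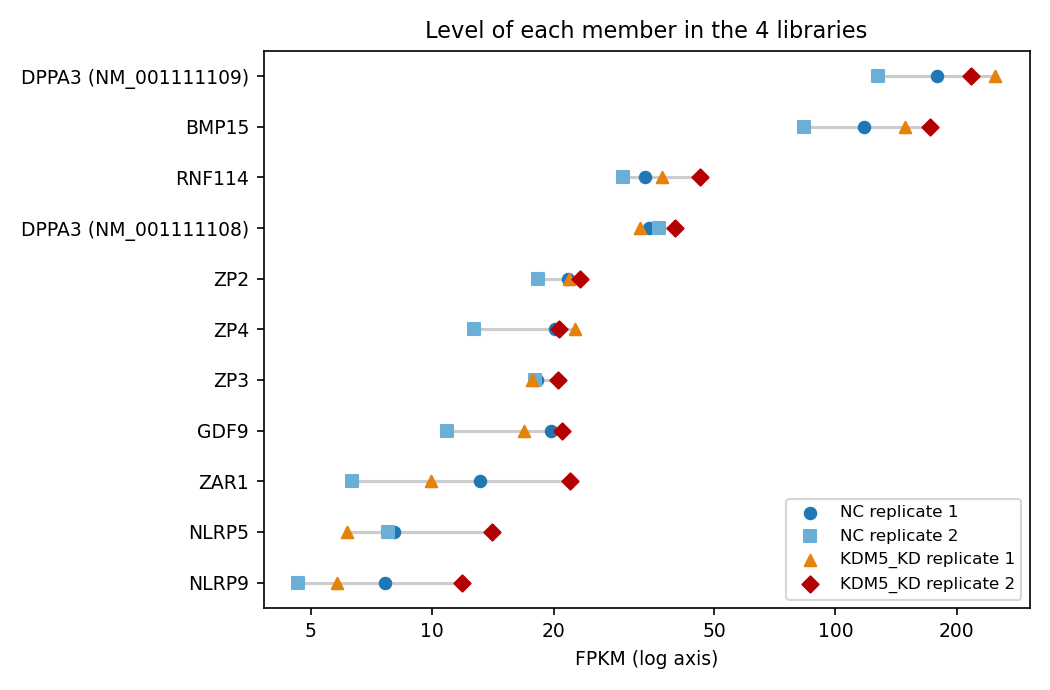
FPKM of each member row (log axis) in the 4 libraries, ordered by mean level, with a grey line from the lowest to the highest library. KDM5_KD replicate 2 (diamonds) was the highest library for 9 of the 11 rows and NC replicate 2 (squares) the lowest for 8.

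Of the secreted ligands, BMP15 (NM_001031752) was by far the more abundant. It had 118 and 83.8 FPKM in NC replicates 1 and 2 and at 149 and 172 FPKM in KDM5_KD replicates 1 and 2, so the groups did not overlap. Group means were 101 ± 23.9 FPKM (SD, n = 2) and 160 ± 16.1 FPKM (SD, n = 2), the latter being 159% of the former. Its log2 difference of 0.68 (SE 0.185, 95% interval 0.23 to 1.13) had a limma adjusted p = 0.166. With NC replicate 2 as the only control it was 0.92, and with NC replicate 1 as the only control it was 0.44.

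GDF9 (NM_174681), the partner with which BMP15 can form heterodimers, had 19.7 and 10.9 FPKM in the controls versus 16.9 and 21.0 FPKM in KDM5_KD. The groups overlapped, because NC replicate 1 lay above KDM5_KD replicate 1. The log2 difference was 0.34 (SE 0.283, 95% interval -0.35 to 1.03, limma adjusted p = 0.587). The direction rested on NC replicate 2, without which the difference was -0.060. FPKM are scaled to transcript length, so the ligands can be set against each other within a library, where scaling between libraries cancels. BMP15 was 5.97 and 7.68 times the level of GDF9 in NC and 8.80 and 8.17 times in KDM5_KD. This ratio was higher in both knockdown libraries, but the gap between the NC libraries (1.71) exceeded that between NC replicate 2 and KDM5_KD replicate 2 (0.489).

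ZAR1, NLRP5 and NLRP9, which act in the cytoplasm of the egg, shared the widest spread of the group. They also had the lowest mean levels, 12.8, 9.01 and 7.49 FPKM, and the part of level in this spread was not tested. ZAR1 (NM_001076203) encodes a zinc-finger protein that binds stored maternal messenger RNAs. It had 13.2 and 6.32 FPKM in the controls versus 9.91 and 21.9 FPKM in KDM5_KD, a 3.46-fold range over 4 libraries with overlapping groups. Its log2 difference of 0.63 was close to that of BMP15, but with an SE of 0.440 the 95% interval ran from -0.44 to 1.71 (limma adjusted p = 0.510). Taken alone against both NC libraries, KDM5_KD replicate 1 differed by 0.10 and replicate 2 by 1.17. In the RefSeq gene table of ARS-UCD2.0, ZAR1 overlaps another protein-coding gene, FRYL, so its row is uncertain. FRYL itself was at 4.20 and 5.38 FPKM in the controls versus 4.08 and 4.33 FPKM in KDM5_KD.

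NLRP5, also called MATER, is a component of the subcortical maternal complex under the egg's surface. It had nearly equal levels in the NC libraries (8.05 and 7.75 FPKM), while the KDM5_KD libraries lay on either side of them at 6.13 and 14.1 FPKM. The log2 difference of 0.22 (SE 0.353, 95% interval -0.64 to 1.08, limma adjusted p = 0.796) therefore averaged opposite values, -0.32 for KDM5_KD replicate 1 and 0.76 for replicate 2. NLRP9, an oocyte-expressed member of the same family, had 7.66 and 4.66 FPKM in the controls versus 5.80 and 11.8 FPKM in KDM5_KD. Its log2 difference was 0.42 (SE 0.361, limma adjusted p = 0.604), and -0.042 with KDM5_KD replicate 1 alone. Between the KDM5_KD replicates ZAR1, NLRP5 and NLRP9 differed by 2.21-, 2.30- and 2.04-fold in FPKM, and no other member by more than 1.24-fold. Reads of related NLRP genes may be divided among rows, which adds to the uncertainty of both NLRP rows. NLRP5 also overlaps a long noncoding RNA gene in the gene table.

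RNF114 (NM_001024531) encodes an E3 ubiquitin ligase with a RING domain. It was at 33.7 and 29.8 FPKM in the controls versus 37.1 and 46.1 FPKM in KDM5_KD, without overlap. The log2 difference of 0.37 (SE 0.157) had a 95% interval from -0.0093 to 0.76 and a limma adjusted p = 0.296. In the gene table RNF114 overlaps a small nucleolar RNA gene.

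DPPA3, also called STELLA or PGC7, binds chromatin and protects the maternal genome from loss of DNA methylation after fertilization. Its rows gave different pictures. NM_001111109, the most abundant row of the group, was at 179 and 128 FPKM in the controls versus 249 and 216 FPKM in KDM5_KD, with no overlap. Its log2 difference was 0.62 (SE 0.183, 95% interval 0.17 to 1.06, limma adjusted p = 0.188). It was 0.86 against NC replicate 2 alone and 0.38 against NC replicate 1 alone. NM_001111108 was at 34.5, 36.5, 32.8 and 40.0 FPKM in the same order of libraries, with overlapping groups and a log2 difference of 0.03 (SE 0.146, 95% interval -0.33 to 0.39, limma adjusted p = 0.939). The sign of that difference flipped under median-ratio scaling (-0.080) and quantile normalization (-0.014). NM_001111108 made up between 11.7% and 22.2% of the sum of the DPPA3 rows, and how reads were divided between them was not tested. Together the rows had 189 ± 34.5 FPKM (SD, n = 2) without and 269 ± 17.7 FPKM (SD, n = 2) with the knockdown, a log2 difference of 0.52 (SE 0.155, limma adjusted p = 0.180).

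**Figure D2:**
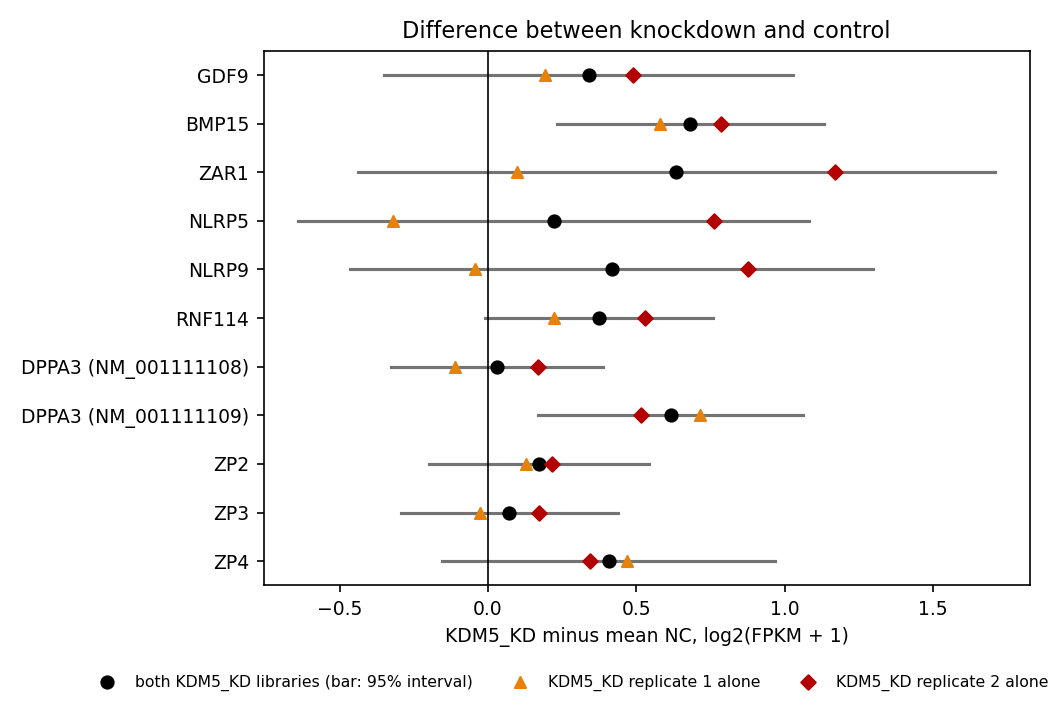
Difference between KDM5_KD and the mean of the NC libraries on the log2(FPKM + 1) scale for each member row. Black points and bars give the limma estimate and its 95% interval, triangles and diamonds the difference of each knockdown library alone; 9 of the 11 intervals include 0, and NLRP5 shows the knockdown libraries on opposite sides of 0.

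Among the zona pellucida genes the highest and lowest library differed by 1.16-fold for ZP3, 1.27-fold for ZP2 and 1.78-fold for ZP4, and all 3 intervals of the group difference included 0. ZP3 (NM_173974), which encodes a main structural subunit of the coat, was at 18.2 and 18.0 FPKM in the controls versus 17.7 and 20.5 FPKM in KDM5_KD, with overlapping groups. Its log2 difference was 0.07 (SE 0.149, limma adjusted p = 0.846), with a 95% interval of -0.29 to 0.44, and its sign flipped under median-ratio scaling (-0.034), under quantile normalization (-0.027) and without KDM5_KD replicate 2 (-0.028). ZP2 (NM_173973), the subunit cleaved after fertilization when the coat hardens, was at 21.7 and 18.3 FPKM in the controls versus 21.9 and 23.3 FPKM in KDM5_KD. The groups did not overlap, but NC replicate 1 and KDM5_KD replicate 1 were almost level. The log2 difference was 0.17 (SE 0.152, 95% interval -0.20 to 0.54, limma adjusted p = 0.610).

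ZP4 (NM_173975), a subunit that cattle share with pigs and humans, was at 20.2 and 12.7 FPKM in the controls versus 22.5 and 20.6 FPKM in KDM5_KD. Here 3 libraries lay close together and NC replicate 2 stood below them. The log2 difference of 0.41 (SE 0.230, 95% interval -0.16 to 0.97, limma adjusted p = 0.420) became 0.09 with NC replicate 1 as the only control and 0.72 with NC replicate 2 as the only control. Within libraries ZP2 ran at 1.19 and 1.02 times the level of ZP3 in NC and at 1.24 and 1.14 times in KDM5_KD. The corresponding ratios of ZP4 to ZP3 were 1.11 and 0.706 in NC and 1.27 and 1.01 in KDM5_KD. Neither ratio separated the groups, and the lowest value of both was in NC replicate 2.

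Ordered by mean FPKM over the 4 libraries, the rows fell into a few tiers. DPPA3 NM_001111109 (193 FPKM) and BMP15 (130 FPKM) led, higher than 97.4% and 95.7% of all tested rows. Their ranges over the libraries overlapped, although DPPA3 was the higher in each library. RNF114 (36.7 FPKM) and DPPA3 NM_001111108 (36.0 FPKM) followed and could not be ordered, each leading in 2 libraries. Every library placed this pair below BMP15 and above ZP2. ZP2 (21.3 FPKM), ZP4 (19.0 FPKM), ZP3 (18.6 FPKM) and GDF9 (17.1 FPKM) overlapped with their neighbours, as did ZAR1 (12.8 FPKM), NLRP5 (9.01 FPKM) and NLRP9 (7.49 FPKM). NLRP5 exceeded NLRP9 in all 4 libraries, by 1.05 to 1.66 times. The lowest member still lay above 41.3% of all tested rows.

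The libraries themselves ordered the members in a recurrent way. KDM5_KD replicate 2 was the highest of the 4 libraries for 9 of the 11 rows, against 35.9% of all tested rows, and NC replicate 2 was the lowest for 8, against 37.5%. Both held for 6 rows (GDF9, BMP15, ZAR1, NLRP9, RNF114 and ZP2), against 18.3% of tested rows. DPPA3 NM_001111109 and ZP4 were highest in KDM5_KD replicate 1, and NLRP5, ZP3 and DPPA3 NM_001111108 were lowest there. Centred on each row's own mean and averaged over the 11 rows, log2(FPKM + 1) was 0.02 in NC replicate 1, -0.38 in NC replicate 2, -0.01 in KDM5_KD replicate 1 and 0.37 in KDM5_KD replicate 2. On this average NC replicate 1 and KDM5_KD replicate 1 sat level, with the other library of each group on opposite sides. Single rows differed in both directions. NC replicate 1 and KDM5_KD replicate 1 were at -0.10 and 0.24 for BMP15 and at -0.07 and 0.41 for DPPA3 NM_001111109. They were at 0.16 and -0.22 for ZAR1, at -0.09 and -0.43 for NLRP5 and at 0.10 and -0.25 for NLRP9.

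Differences within the groups were of the same size as those between them. NC replicate 1 exceeded NC replicate 2 for 10 of the 11 rows (55.8% of all tested rows), by a median of 0.48 against 0.04 for all tested rows. KDM5_KD replicate 2 exceeded replicate 1 for 9 of the 11 (55.6% of all tested rows), by a median of 0.28 against 0.04. For 5 rows the gap between the KDM5_KD replicates was larger than the difference of the group means, as it was for 45.0% of tested rows. Without KDM5_KD replicate 2, the library with conflicting labels, the median member difference was 0.13 in place of 0.37 and 4 of the 11 rows turned negative (NLRP5, NLRP9, ZP3 and DPPA3 NM_001111108). With that library alone the median was 0.52 and all 11 were positive. For all tested rows the medians were 0.07 without that library and 0.12 with it alone. The control mattered as much, since the median was 0.11 against NC replicate 1 and 0.72 against NC replicate 2. All tested rows had medians of 0.10 and 0.09 in these settings, so against NC replicate 1 the members lay close to all rows.

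**Figure D3:**
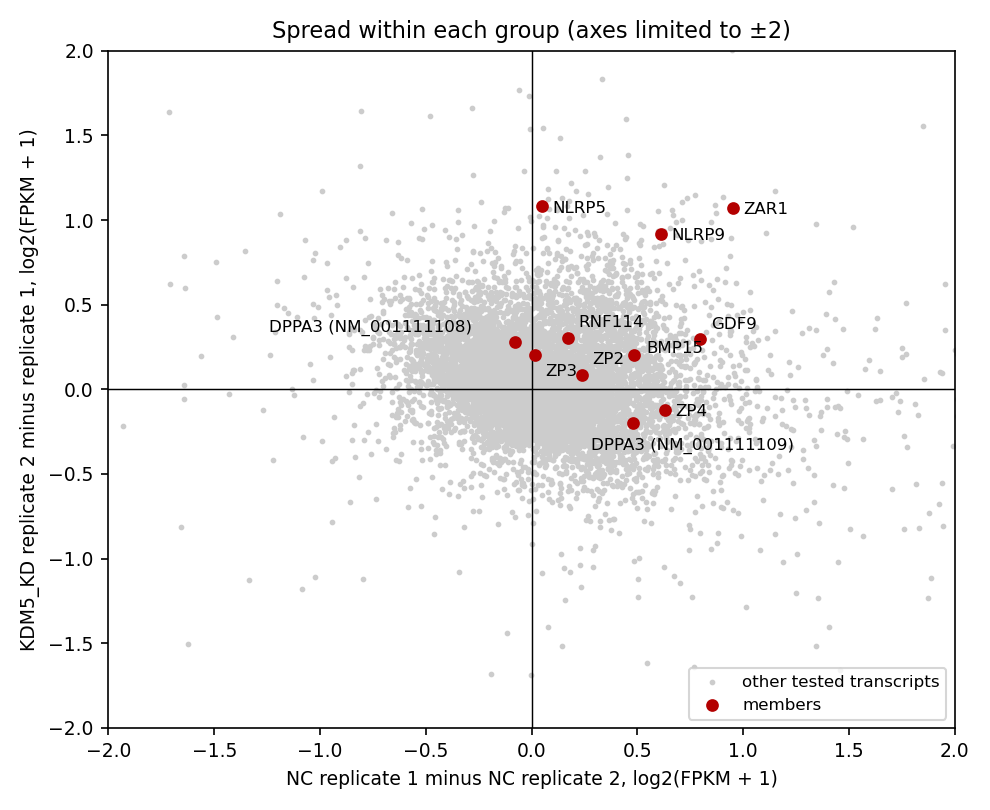
Gap between the NC libraries (horizontal) and between the KDM5_KD libraries (vertical) for each tested row, on the log2(FPKM + 1) scale, with the members in red. ZAR1, NLRP5 and NLRP9 lie highest on the vertical axis, and 10 of the 11 rows lie to the right of 0.

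Other genes of the oocyte and of maternal RNA handling were examined as 8 lists, with the members left out. Of 82 tested rows, none passed the threshold in limma (0.279% of all tested rows) and 23 had an unadjusted limma p under 0.05 (17.5%). A positive difference was found for 63 (62.6% of all tested rows). Both KDM5_KD libraries lay above both NC libraries for 41 (35.1%) and below for 8 (15.6%). Their median log2 difference was 0.22 against 0.09 for all tested rows. KDM5_KD replicate 2 was the highest library for 40 of them (35.9% of all tested rows) and NC replicate 2 the lowest for 38 (37.5%).

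Beside the zona genes, the oocyte surface list had 6 tested rows with a median of 0.80. Of these 5 lay above and 1 below (35.1% and 15.6% of all tested rows). CD81 and CD9 encode tetraspanins of the egg membrane. CD81 went from 5.51 and 3.71 FPKM in NC to 11.2 and 11.7 FPKM in KDM5_KD, a log2 difference of 1.17 with a limma adjusted p = 0.107. CD9 was at 32.4 and 27.1 FPKM in the controls versus 58.3 and 38.3 FPKM in KDM5_KD. OOSP2, an oocyte-secreted protein gene with 2 rows, was highest in KDM5_KD replicate 2. Its row NR_024196 was at 81.6 and 59.4 FPKM in the controls versus 93.2 and 196 FPKM in KDM5_KD. The row NM_001038687 was at 21.0 and 13.3 against 24.8 and 58.5 FPKM. KDM5_KD replicate 2 exceeded replicate 1 by 2.10 and 2.36 times in these rows, as wide a gap as for ZAR1, NLRP5 and NLRP9. OOEP, picked after its values were seen as the only further subcortical complex gene with a row, was at 8.41, 6.51, 8.08 and 11.8 FPKM in NC replicates 1 and 2 and KDM5_KD replicates 1 and 2.

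Of 7 tested germ cell rows (median 0.42), 5 lay above, against 35.1% of all tested rows. Among the non-overlapping rows the receptor gene KIT had the largest difference, 0.95. It was followed among these by the RNA-binding protein gene DAZL at 0.68, TDRKH at 0.54 and the RNA helicase gene DDX4 (row NM_001007819) at 0.28. Limma adjusted p for these 4 lay between 0.151 and 0.574, and the DDX4 sign flipped after quantile normalization (-0.013). Of 7 rows for RNA storage and translation (median 0.44, 3 above), PAIP1, whose product binds the poly(A)-binding protein, differed by 0.70 and IGF2BP3 by 0.63, while DDX6 differed by 0.06 and flipped under both scalings (-0.11 after quantile normalization and -0.043 with median-ratio scaling). ZAR1L, the paralog of ZAR1, ran at 3.38 to 5.98 times the FPKM of ZAR1, and this ratio did not separate the groups.

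The machinery that clears maternal messenger RNA had 23 tested rows with a median of 0.11. Of these 9 lay above and 2 below (35.1% and 15.6% of all tested rows). Its largest non-overlapping differences were those of PARN (0.72), PAN2 (0.65), TOB2 (0.54) and TOB1 (row NM_001077075, 0.40). Limma adjusted p for these rows lay between 0.168 and 0.290. Their products act in poly(A) removal, but the other TOB1 row differed by 0.12. The CNOT genes of the same list ran from -0.15 (CNOT1) to 0.38 (CNOT6L). Levels of PARN were 4.11 and 3.47 FPKM in the controls versus 6.40 and 7.42 FPKM in KDM5_KD. PAN2 was lower, at 1.31 and 1.76 FPKM versus 2.83 and 3.11 FPKM. Among 12 rows of maternal chromatin and methylation factors (median 0.30, 6 above, 3 below), the histone chaperone gene NPM2 differed by 0.60 and DNMT3A by 0.59. The oocyte linker histone gene H1-8 differed by 0.57 and CBX1 by 0.54. DNMT3A lay close to the filter, at 0.641 and 0.629 FPKM in the controls versus 1.36 and 1.55 FPKM in KDM5_KD. H1-8 was at 49.0 and 37.6 FPKM in the controls versus 49.3 and 83.4 FPKM in KDM5_KD, another row with its highest value in KDM5_KD replicate 2.

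Receptors and SMAD proteins pass on the signals of GDF9 and BMP15. Of their 13 tested rows (median 0.24), 7 lay above and 1 below (35.1% and 15.6% of all tested rows). BMPR1B, which encodes a type I receptor for BMP15, was at 2.48 and 1.88 FPKM in the controls versus 4.28 and 4.96 FPKM in KDM5_KD, a log2 difference of 0.82 (SE 0.213, limma adjusted p = 0.157). SMAD5, SMAD2 and BMPR1A differed by 0.63, 0.51 and 0.46. Among 14 regulators of meiosis and the cell cycle (median 0.08, 6 above, 2 below), KPNA7, an oocyte importin gene, differed by 0.52, CDC25B by 0.52 and AURKA by 0.45. PTTG1, the securin gene, was listed at 1.37e-06 FPKM in NC replicate 2 and at 299, 354 and 353 FPKM in the other libraries, and no fold is given against that value.

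**Figure D4:**
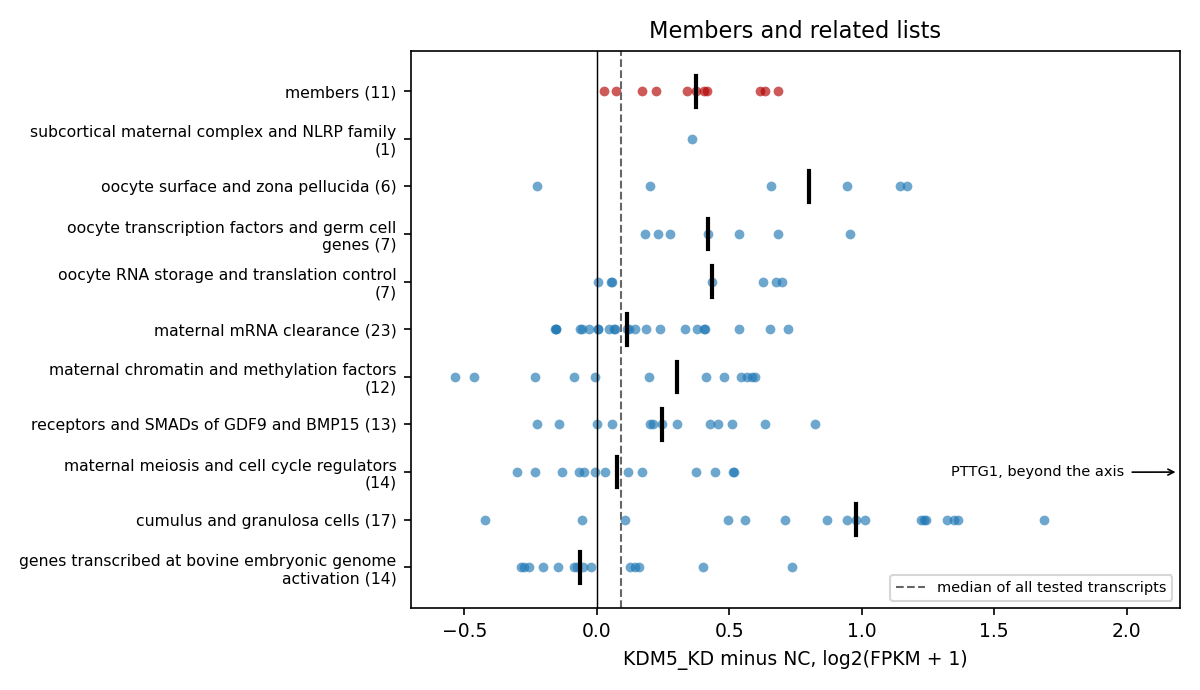
Log2(FPKM + 1) difference between KDM5_KD and NC for each tested row of the members and the related lists, with the number of rows in brackets, the list median as a black bar and the median of all tested rows as a dashed line. PTTG1, at 1.37e-06 FPKM in NC replicate 2, lies beyond the axis; the cumulus and granulosa list has the highest median, 0.98, and the genome activation list the lowest, -0.06.

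Markers of cells that could accompany the embryos were examined beside these results. All 24 listed cumulus and granulosa genes, which mark the follicle cells around an oocyte, had a row, and 17 were tested. Of these, 15 lay above in KDM5_KD (35.1% of all tested rows) and 1, the connexin gene GJA1, passed the threshold that 0.279% of all tested rows passed (6.53 and 5.27 FPKM in NC, 20.2 and 22.1 FPKM in KDM5_KD, limma adjusted p = 0.0333, which became 0.0591 when the replicate number entered the fit). VCAN, INHBB and GREM1 followed, with log2 differences of 1.36, 1.35 and 1.32. The 24 rows summed to 71.2 and 50.7 FPKM in the controls versus to 132 and 127 FPKM in KDM5_KD. FSHR was listed at 0 in both NC libraries, and FSHR, LHCGR and CYP19A1 reached at most 0.0602 FPKM in any library. Other listed genes were present and higher in both knockdown libraries. CYP11A1 rose from control values of 8.41 and 3.79 FPKM to knockdown values of 12.5 and 17.2 FPKM. INHA rose from 1.20 and 0.489 to 3.67 and 2.91 FPKM. FOXL2, below the filter, rose from 0.660 and 0.491 to 1.07 and 1.25 FPKM. Among the tested rows AMH and TNFAIP6 went the other way, by -0.42 and -0.05. KDM5_KD replicate 2 exceeded replicate 1 for 7 of the 17 rows and for 9 of the 11 member rows (55.6% of all tested rows). NC replicate 2 was the lowest library for 15 of the 17 rows and for 8 of the 11 member rows (37.5%). The part of follicle cell transcripts in the member differences was not tested. Sperm genes were nearly absent, since the 9 rows summed to between 1.63 and 1.90 FPKM.

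Of 22 listed genes known to be transcribed when the embryonic genome is activated, 14 had a row, and these were present in all libraries. KLF17, DUXA, LEUTX, ARGFX, ZSCAN4, ZSCAN5B, HNRNPA2B1 and KDM4E had no row. POU5F1 was at 59.2 and 63.2 FPKM in the controls versus 60.0 and 56.2 FPKM in KDM5_KD, and NANOG at 37.0 and 55.0 against 53.8 and 47.4 FPKM. The 14 tested rows had a median difference of -0.06, with 4 above and 4 below (35.1% and 15.6% of all tested rows). PRDX1 and SUPT4H1 differed by 0.73 and 0.40, and GATA3 and KLF4 by -0.29 and -0.27, with limma adjusted p between 0.0953 and 0.530. KLF4 was at 606 and 517 FPKM in the controls versus 507 and 422 FPKM in KDM5_KD, lowest in the library where most members were highest.

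Transcripts with the pattern closest to the average of the members were sought over the 4 libraries among 5914 rows outside the lists with a symbol and a mean of at least 5 FPKM. The smallest root mean square distances of centred log2(FPKM + 1) values were those of TBL1XR1 (0.0173), AGK (0.0272) and MDM2 (0.0278). TBL1XR1 was at 27.2 and 21.0 FPKM in the controls versus 27.0 and 34.8 FPKM in KDM5_KD. A distance of at most 0.1 was found for 111 of the 5914 rows. Among the members RNF114 came closest to the average, at 0.0828, and ZAR1 was the farthest, at 0.343.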

How the data were processed

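The deposited table gives FPKM, computed by the authors for each RefSeq transcript in each of 4 libraries. The submitters' processing notes name Trimmomatic, HISAT2, featureCounts and Cufflinks. Versions, genome build and annotation are not given in the sources used here, so no positions are printed. Symbols came from the RefSeq gene table of assembly ARS-UCD2.0, which matched 14295 of 14517 accessions.

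Differences of log2(FPKM + 1) between KDM5_KD and NC were tested with limma 3.58.1 (R 4.3.3; lmFit, eBayes with a trend) over the 8970 rows with a mean of at least 1 FPKM, with Benjamini-Hochberg adjustment over all of them and no covariates. The pseudocount makes fold changes of low rows too small. The test was checked on simulated data.

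Text names every member, the targets, and from each list the calls plus the largest non-overlapping differences, up to 4 rows a list. Some further list genes are named outside this rule, among them CYP11A1, INHA, FOXL2, AMH, TNFAIP6, POU5F1, NANOG, ZAR1L and UHRF1. Members and lists were chosen with earlier results of these data known. Alternatives were another pseudocount, filters, scalings and variance models, a replicate block, rows summed by symbol, and leaving out each library. KDM5B, KDM6B and list genes without a row were not analysed here, nor were promoter motifs. Figures used matplotlib 3.10.9.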

Additional observations from a re-analysis of the deposited data

How the results depend on the processing

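No member row passed the threshold in any of the 9 alternatives that kept all libraries (limma adjusted p from 0.106 upward). With 1 library left out the number of members that passed ranged from 0 to 2, and the 2 were BMP15 and DPPA3 NM_001111109 without NC replicate 1. The number of members with KDM5_KD above NC was 5 in the reported setting. It was 3 with median-ratio scaling and 3 with quantile normalization (BMP15, RNF114 and DPPA3 NM_001111109 in both). With 1 library left out it was 5 to 11, with 8 without NC replicate 1 and 11 without KDM5_KD replicate 1. A lone library in a group makes non-overlap easier to reach, so these counts cannot be set against the 35.1% of all tested rows. Shares of all tested rows under these settings are not given here. Quantile normalization shifted the median of all rows by -0.14 and median-ratio scaling by -0.098, and the members' median difference was then 0.22 and 0.27. Differences that changed sign were DPPA3 NM_001111108 (-0.080 with median-ratio scaling, -0.014 with quantile normalization, -0.010 without NC replicate 1 and -0.11 without KDM5_KD replicate 2), ZP3 (-0.034, -0.027 and, without KDM5_KD replicate 2, -0.028), NLRP5 and NLRP9 without KDM5_KD replicate 2 (-0.32 and -0.042) and GDF9 without NC replicate 2 (-0.060). With 1 library left out their highest values were 0.17 (DPPA3 NM_001111108), 0.17 (ZP3), 0.76 (NLRP5) and 0.88 (NLRP9) without KDM5_KD replicate 1, and 0.74 (GDF9) without NC replicate 1. Of the 143 comparisons of a member with an alternative, 131 kept direction and side of the threshold, 10 changed sign and 2 newly passed. In these comparisons both DPPA3 rows took the same value, 0.52, where rows were summed by symbol. The other members kept their difference there, having a single row each. Where only the filter, the variance model or the replicate block was altered, every member difference stayed the same by construction. The count of 131 includes these settings, in which direction could not change. Over all rows, 25 passed in the reported test, 3 without a filter, 12 with eBayes without a trend, 46 with robust eBayes and 12 with the replicate block. Leaving out 1 library gave 6 to 340 calls, the lowest without KDM5_KD replicate 2 (6) and the highest without NC replicate 1 (340), with 8 without KDM5_KD replicate 1 and 41 without NC replicate 2. In these fits the lone library of a group is assumed to vary like the other group. The cause of these changes was not tested. Replicate numbers are shared between the groups, deviations of same-numbered libraries correlated at 0.229 across rows, and nothing in the labels says that a number marks a shared batch. With the replicate number as a block no member passed, and of the named genes GJA1 and KDM5A lost the threshold (limma adjusted p of 0.0591 for both). Absolute depth is unknown, so no detection limit can be given.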

Other observations

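Some genes of the maternal chromatin list differed in the opposite direction to the members, and they are named here after their values were seen. TRIM28, a co-repressor that maintains imprints in the early embryo, was at 169 and 130 FPKM in the controls versus 107 and 97.5 FPKM in KDM5_KD, a log2 difference of -0.53. EHMT2, an H3K9 methyltransferase gene, was at 25.5 and 24.9 FPKM in the controls versus 16.8 and 19.3 FPKM in KDM5_KD, a log2 difference of -0.46. Both KDM5_KD libraries lay below both NC libraries for each, and neither passed the threshold in limma.

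UHRF1, which encodes the protein that DPPA3 binds, had 98.0 and 48.1 FPKM in the controls versus 87.2 and 106 FPKM in KDM5_KD. Its lowest value was in NC replicate 2 and its highest in KDM5_KD replicate 2, as in the average of the members and in 18.3% of all tested rows. The groups overlapped.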
